A study of Mus musculus with 2 samples.

Results

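Dividing cells of the injured mouse spinal cord were chosen by their own transcripts. They were the 67 cells, of 577 cells kept in the injured library and 1272 kept in the series, that held 3 or more unique molecular identifiers (UMIs, each tagging 1 captured RNA molecule) summed over 18 genes of mitosis. The study counted polyadenylated RNA in single sorted spinal cord cells with the 10x Chromium 3′ version 2 chemistry. The injured library came from cord 5 days after lysolecithin, a lipid that strips myelin from axons, and the uninjured library from age-matched cord. The mice of both libraries were Cx3cr1-CreER::Rosa26-tdTomato, with C57BL/6J as their background strain. To switch on Cre, 4-hydroxytamoxifen had been given in all of them as 2 intraperitoneal doses (1 mg each) in postnatal week 4. The cords were dissected 4 weeks after it. Cre is driven by the Cx3cr1 gene, so the sort for tdTomato takes microglia, other macrophages of the tissue and any of their progeny. The number and sex of the pooled animals are not given in the labels. There was 1 library per condition and cells of 1 library are not replicates, so no comparison here has a p-value or a replicate check.

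A dividing cell first copies its DNA in S phase, then condenses its chromosomes and parts them on a spindle of microtubules in mitosis. Cyclin B with the kinase Cdk1 starts mitosis, the anaphase-promoting complex with its activator Cdc20 ends it, and most of the transcripts concerned are made in the G2 and M phases and lost soon after. Microglia of healthy adult tissue divide rarely and multiply locally after injury, with signalling through the receptor Csf1r needed for their survival.

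Many of the 18 genes hold promoter letters that are known from work on the cell cycle. Promoters of G2 and M genes often carry the letters TTTGAA, called the cell cycle genes homology region or CHR, and CCAAT, the letters bound by the factor NF-Y. Promoter records of RefSeq on GRCm38.p6, each reaching from 250 bases before to 50 after the gene's start, matched 14 of the 18 genes by symbol. TTTGAA was found on either strand in 11 of the 14 (78.6%), against 5878 of all 32851 records (17.9%). CCAAT was found in 12 of the 14 (85.7%), against 37.4% of all records, and both together in 11 of the 14 (78.6%), against 6.95%. The E2F letters TTTCCCGC, TTTGGCGC, TTTCGCGC and TTTGCCGC, typical of S phase genes, were found in 1 of the 14, the Cdk1 record, and in 2.26% of all records. All motifs were searched on both strands and may overlap each other, and a match describes letters, not a bound site. The stretches below, from genes that part, label or drive mitotic chromosomes, show these letters before the start, with CCAAT, its reverse complement ATTGG, and TTTGAA in capitals. Each stretch stops before the outermost annotated start of its gene, so some matches counted above are not shown. These include TTTGAA at base 32 from the start in the Aurka record and at base 4 in that of Ccnb2, and CCAAT at base −8 in that of Cdc20. The full spacing therefore cannot be read from the stretches. The Cdc20 stretch lies at chr4:118437353-118437406, that of Mki67 at chr7:135716462-135716577, that of Aurka at chr2:172370575-172370631 and that of Ccnb2 at chr9:70421561-70421731, and all 4 genes are on the minus strand.
Cdc20: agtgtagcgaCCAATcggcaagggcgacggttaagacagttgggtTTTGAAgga
Mki67: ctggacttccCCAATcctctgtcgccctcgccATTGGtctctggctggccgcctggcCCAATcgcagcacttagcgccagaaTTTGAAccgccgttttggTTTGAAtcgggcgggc
Aurka: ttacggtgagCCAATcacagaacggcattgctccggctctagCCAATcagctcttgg
Ccnb2: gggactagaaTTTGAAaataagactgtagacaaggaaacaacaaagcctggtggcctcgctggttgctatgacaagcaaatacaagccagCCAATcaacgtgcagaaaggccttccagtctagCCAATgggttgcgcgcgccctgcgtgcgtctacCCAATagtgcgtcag
The Ccnb2 stretch holds CCAAT 3 times and the Mki67 stretch holds TTTGAA 2 times.

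By the rule, 11.6% of injured cells (67 of 577, exact 95% interval 9.11 to 14.5%) were dividing cells, against 1 of 695 uninjured cells (0.144%, 0.00364 to 0.799%). The libraries also differed in sex. Of the uninjured cells, 6 held UMIs of the X-inactivation RNA Xist alone, 235 Y-linked UMIs alone and 452 neither. Of the injured cells, 213, 147 and 200 did. Injury and the sex of the cells therefore differ together in every comparison of the 2 libraries. The other injured cells divided into 129 with 1 or 2 UMIs of the 18 genes and 381 with none. With every cell thinned to 3000 UMIs before the rule, the shares were 38 of 465 injured cells (8.17%) and 1 of 348 uninjured cells (0.287%), with shallower cells left out. All intervals cover counting error only. The 67 cells held 971 of the injured library's 1128 UMIs of these genes (86.1%), and the whole uninjured library held 69. A dividing cell had a median of 9 such UMIs (quartiles 4 and 17.5, highest 64) over a median of 5 of the 18 genes, and 1 cell passed on a single gene. The 1 uninjured cell that met the rule held 16 of them among 3671 UMIs.

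**Figure D1:**
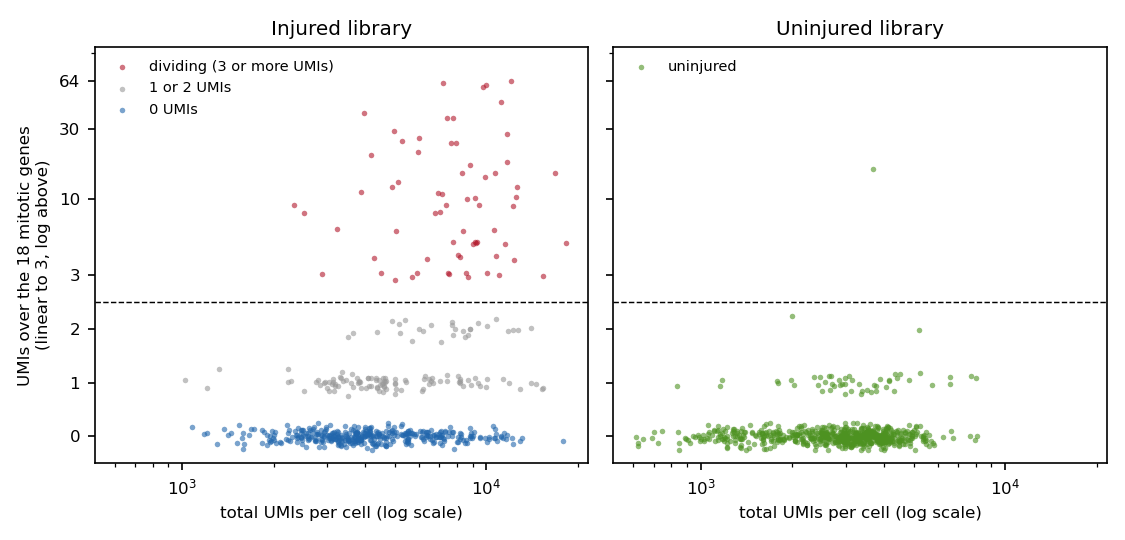
UMIs of the 18 mitotic genes per cell (vertical axis, linear to 3 and logarithmic above, with points jittered) against all UMIs of that cell (horizontal, logarithmic), for the injured library on the left and the uninjured library on the right, with 1 point per cell. The 67 dividing cells lie above the dashed line and mostly at high depth, and 1 uninjured cell lies above it.

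The genes that made the choice are given as a description. Birc5, which encodes survivin of the chromosomal passenger complex, was seen in 54 of the 67 cells (143 UMIs), and Cenpa, the histone H3 variant of centromeres, in 45 (104 UMIs). Ccnb2, a cyclin B, was seen in 38 cells (86 UMIs) and Ube2c, the ubiquitin-conjugating enzyme of the anaphase-promoting complex, in 35 (93 UMIs). Pbk, a mitotic kinase, was seen in 32 cells, Cdk1 in 29, Top2a, the enzyme that untangles DNA, in 24, and Ccnb1 and Cdc20 in 21 each. Nusap1 and Tpx2, spindle proteins, were seen in 20 cells each, and Cenpf and Mki67 in 17 each. Ccna2, a cyclin of S and G2 phase, was seen in 16 cells, Hmmr in 14, and the kinases Aurka, Aurkb and Plk1 in 13 each. Birc5 was found in each of the 21 cells with Cdc20 and in 33 cells without it. Just inside the threshold, the 12 cells with 3 UMIs had a median depth of 7511.5 UMIs and, pooled, 1726 counts per 1000000 UMIs (CPM) of the histone variant H2afz. Just outside, the 28 cells with 2 UMIs had a median depth of 7756.5 UMIs and 959 CPM of H2afz.

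Depth moved with the rule. Dividing cells held a median of 8055 UMIs (quartiles 5937.5 and 10019, lowest 2335, highest 18223) of 2332 genes, against 3952 UMIs (quartiles 2986 and 5630, lowest 1078, highest 17786) of 1452 genes in injured cells with none of the 18 genes' UMIs. The ratio of the medians was 2.04. The share of injured cells that met the rule was 2.68% below 3000 UMIs, 3.96% from 3000 to 5000, 16.0% from 5000 to 8000 and 31.8% at 8000 or more. The median share of mitochondrial UMIs was 2.49% in dividing cells and 2.52% in cells with 0 UMIs. Growth of a cell before division and a rule that deep cells pass more easily cannot be told apart here. Deep cells with 0 UMIs may also differ from shallow ones in more than depth, and that was not tested. Ratios of single genes and list medians below are therefore given over all 381 cells with 0 UMIs and, in most cases in brackets after it, over the 89 of them with at least 5937.5 UMIs, called the deep cells with 0 UMIs, whose median was 7714.

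Dividing cells carried the markers of microglia and few UMIs of markers of other cell types. The 8 microglial markers P2ry12, Tmem119, Cx3cr1, Csf1r, Siglech, Sall1, Fcrls and Gpr34 summed to 4955 CPM in dividing cells and 6352 CPM in cells with 0 UMIs (log2 ratio −0.36, −0.42 to −0.30), and 65 of 67 dividing cells held 3 or more of their UMIs, against 370 of 381. Per cell that sum ran from 4.28 to 129 per 10000 UMIs with a median of 48.7 in dividing cells, against 0 to 227 with a median of 62.7 in cells with 0 UMIs. Border-associated macrophage markers summed to 99.7 and 131 CPM in dividing cells and cells with 0 UMIs, and 3 of 67 dividing cells held 3 or more of them. Of the 7 markers, Mrc1, Pf4, F13a1 and Ms4a7 were found in dividing cells and Cd163, Lyve1 and Cbr2 were at 0. Monocyte markers summed to 18.1 CPM in dividing cells and 11.8 CPM in cells with 0 UMIs, with Ly6c2 and Chil3 at 0 in dividing cells, of which 2 held 3 or more UMIs of the list. No UMI of the neutrophil, ependymal or neuronal lists was found in the 67 cells, and no dividing cell held 3 UMIs of the lists for T and NK cells, B cells, oligodendrocyte precursors, oligodendrocytes, astrocytes or endothelial cells. One dividing cell held 3 UMIs of the pericyte and fibroblast list. No barcode was shared between the libraries. Both sexes were in the injured pool: of its cells with UMIs of the X-inactivation RNA Xist alone, 30 of 213 (14.1%) were dividing, and of those with Y-linked UMIs alone, 15 of 147 (10.2%). Both kinds of UMI stood together in 3 of 67 dividing cells (4.48%) and 11 of 381 cells with 0 UMIs (2.89%), which is where doublets of 2 sexes would stand. With these cells left out 173 of 4238 measured genes were at least 2-fold higher in dividing cells and 198 lower, against 163 and 219 of 4380 with them.

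UMIs were summed over the cells of each class and scaled to CPM, and the log2 ratio of dividing cells over cells with 0 UMIs carries the exact 95% interval of a ratio of 2 counts. The 18 genes stayed out of every comparison. Since mitotic transcripts defined the classes, all ratios describe the classes and none is a test. Of 4380 genes with at least 50 UMIs over both classes, 163 (3.72%) were at least 2-fold higher in dividing cells and 219 (5.00%) at least 2-fold lower, with a median log2 ratio of 0.05. Scaling by TMM moved every log2 ratio by −0.11 and gave 118 higher and 280 lower, and DESeq2 size factors moved it by −0.10 and gave 123 and 266. With every cell thinned to 3000 UMIs, 112 of 2509 genes (4.46%) were higher and 159 (6.34%) lower. Against the deep cells with 0 UMIs, 86 of 2863 genes (3.0%) were at least 2-fold higher and 19 (0.664%) at least 2-fold lower. Of the 63 named genes past 2-fold over all cells with 0 UMIs, 63 kept their direction over the deep ones and 38 stayed past 2-fold. The minimum of 50 UMIs was not applied again to these 38. Among them Crybb1 had 8 UMIs in dividing cells and 23 in deep cells (interval −2.46 to 0.12 over deep cells). Hspa1b had 5 and 17 (−3.13 to 0.16). The choice of reference cells thus moved the low side more than the high side, and thinning did not shrink the low side.

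**Figure D2:**
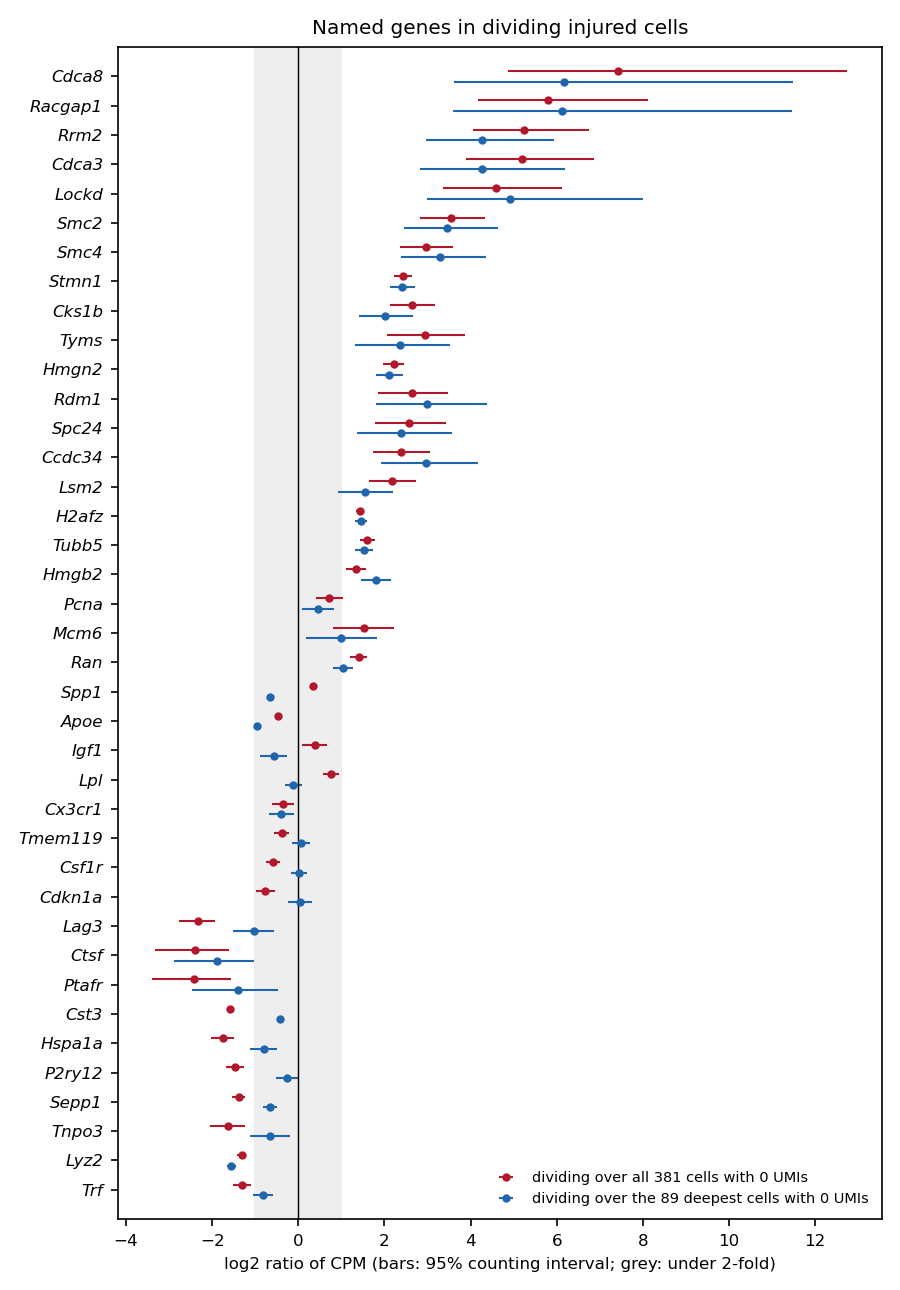
Log2 ratio of CPM (horizontal axis) of named genes, dividing cells over all 381 injured cells with 0 UMIs (red) and over the 89 deep ones (blue), with 95% counting intervals, the grey band marking ratios under 2-fold. The 15 genes at the top stand above 1 under both references, from Cdca8 (7.41 and 6.16) to Lsm2 (2.18 and 1.54), while Cst3 (−1.58 and −0.42) and P2ry12 (−1.47 and −0.25) move towards 0 against deep cells.

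Genes that build the spindle were higher by their sum. Stmn1, which encodes stathmin, a protein that takes microtubules apart and is switched off by phosphorylation in mitosis, ran from 0 to 32.6 UMIs per 10000 with a median of 8.13 in dividing cells. In the deep cells with 0 UMIs it ran from 0 to 8.48 with a median of 1.10, and in all cells with 0 UMIs from 0 to 30.2 with a median of 0. The classes overlapped, and the median dividing cell stood close to the highest deep cell with 0 UMIs. Pooled, Stmn1 stood at 895 CPM against 167 CPM (log2 ratio 2.42, 95% interval 2.21 to 2.64; 2.41 over deep cells), and at 157 CPM in the uninjured library. Tubb5, a β-tubulin, had a log2 ratio of 1.61 (1.44 to 1.77; 1.53 over deep cells), Tuba1b, an α-tubulin, 1.28 (1.55) and Kpna2, an importin, 1.37 (1.33). Over the 24 genes of the spindle list, UMIs summed to 4176 CPM in dividing cells and 1292 CPM in cells with 0 UMIs. The log2 ratio of the sums was 1.69 (1.61 to 1.78), and 1.77 over deep cells. Tuba1b, Tubb5 and Stmn1 held 736, 588 and 494 of the list's 2304 UMIs in dividing cells, so these abundant genes carry most of the sum. Among the 6 measured genes of the list, 5 passed 2-fold upwards and 0 downwards, and the median log2 ratio was 1.33. Most kinesin motors had too few UMIs for that count, among them Kif22 with 22 UMIs in dividing cells and 1 in cells with 0 UMIs and Kif15 with 15 and 1. Tubulins, H2afz and other highly expressed genes here have near-identical gene copies or pseudogenes, so their counts carry that uncertainty.

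Centromere and kinetochore genes, which tie chromosomes to the spindle, were higher by their sum. Cdca8, which encodes borealin, a partner of survivin in the passenger complex, had 53 UMIs in 29 dividing cells and 1 UMI in 1 cell with 0 UMIs of the 18 genes, a log2 ratio of 7.41 (4.87 to 12.74; 6.16 over deep cells). Thinned to 3000 UMIs, 20.3% of dividing cells, 0.351% of cells with 0 UMIs and 0.575% of uninjured cells held a Cdca8 UMI, and unthinned 43.3% and 0.262% in the first 2 classes. Spc24, a part of the Ndc80 complex that grips microtubules, had a log2 ratio of 2.58 (1.78 to 3.42; 2.39 over deep cells), and Bub3, a checkpoint protein, 0.73 (0.66). The list of 25 genes in the files summed to 980 CPM in dividing cells and 219 CPM in cells with 0 UMIs. The log2 ratio of the sums was 2.16 (1.97 to 2.35), and 2.09 over deep cells. Of its 4 measured genes, 2 passed 2-fold upwards (median 1.65). Over deep cells 3 were measured, with Spc24 under the minimum there, and their median was 0.66. Fewer genes of a list often reach the minimum over deep cells, so the 2 medians of a list can rest on different genes. With a minimum of 20 UMIs in place of 50, 12 of 14 kinetochore genes and 10 of 11 spindle genes were at least 2-fold higher, where 6.02% of all 6913 genes were higher and 7.77% lower. Either minimum lets a rare gene in through the class where it is high, as it did Cdca8, Racgap1 and Cdca3, so counts of measured genes describe the lists and support nothing more, and the sums over all genes of a list do not depend on it.

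Other regulators of mitosis followed in part. Cks1b and Cks2 encode small subunits of the Cdk1 complex: Cks1b had a log2 ratio of 2.64 (2.12 to 3.17; 2.02 over deep cells), and Cks2 stood at 281 CPM in dividing cells and 202 CPM in cells with 0 UMIs, a ratio of 0.47 (0.82). These 2 were the measured genes of the list of mitotic kinases and cyclins, with a median of 1.56 and 1 at least 2-fold higher, and the list summed to 685 and 263 CPM in dividing cells and cells with 0 UMIs (1.38 on the log2 scale; 1.58 over deep cells). In the list of cytokinesis and mitotic exit, Racgap1, which directs the ring that pinches the cell in 2, had 52 UMIs in dividing cells and 3 in cells with 0 UMIs (5.80, 4.17 to 8.13; 6.13 over deep cells). Cdca3, a factor of mitotic entry, had 57 and 5 UMIs (5.20, 3.89 to 6.87; 4.26). Anapc11, a subunit of the anaphase-promoting complex, had a log2 ratio of 0.74 (1.03 over deep cells). Pttg1, which encodes securin, the guard of sister chromatids, was not higher: it stood at 90.6 CPM in dividing cells and 103 CPM in cells with 0 UMIs (−0.18, −0.66 to 0.28; 0.27). In that list 2 of 6 measured genes passed 2-fold upwards and 0 downwards (median 0.56; 0.96 over deep cells).

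Genes that package chromosomes were higher by their sum, with 1 named gene going the other way. H2afz, the histone variant H2A.Z, ran from 3.38 to 66.9 UMIs per 10000 with a median of 26.1 in dividing cells. It ran from 0 to 27.0 with a median of 8.34 in the deep cells with 0 UMIs and from 0 to 40.8 with a median of 8.49 in all cells with 0 UMIs. No dividing cell was without it, and the median dividing cell stood near the highest of the deep cells. Pooled it stood at 2568 CPM against 952 CPM (log2 ratio 1.43, 1.33 to 1.53; 1.46 over deep cells). Smc2 and Smc4, the core pair of condensin, had log2 ratios of 3.55 (2.82 to 4.35; 3.45 over deep cells) and 2.96 (2.36 to 3.59; 3.29). Hmgn2 and Hmgb2, small proteins that loosen or bend DNA in chromatin, had 2.22 (1.98 to 2.46; 2.11) and 1.34 (1.10 to 1.58; 1.80). Rad21, a subunit of the cohesin ring, had 1.36 (2.24 over deep cells). Lmnb1, which encodes a lamin of the nuclear envelope, went the other way, with 49 UMIs in dividing cells and 250 in cells with 0 UMIs (−0.67; −1.0 over deep cells). Among 14 measured of 26 genes, 10 passed 2-fold upwards and 0 downwards (median 1.35; 1.71 over deep cells, where 8 of 10 did), and the sum was 6084 CPM in dividing cells and 2250 CPM in cells with 0 UMIs (1.44; 1.47 over deep cells).

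**Figure D3:**
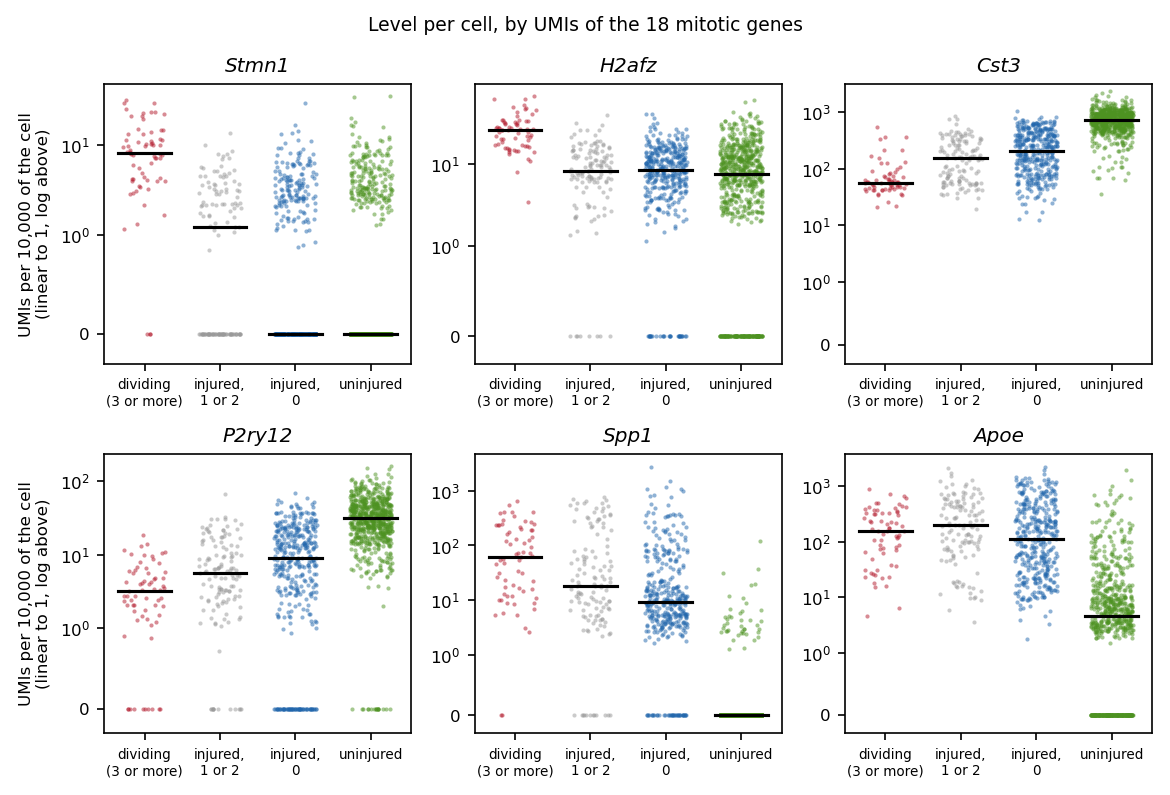
UMIs per 10000 of the cell (vertical axis, linear to 1 and logarithmic above) of 6 genes, with 1 point per cell and the median as a black line, for dividing cells, injured cells with 1 or 2 and with 0 UMIs of the 18 genes, and uninjured cells. Median Stmn1 is 8.13 in dividing cells and 0 in injured cells with 0 UMIs and in uninjured cells, and median Cst3 is 55.7, 151, 206 and 730 over the 4 classes from left to right.

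DNA replication genes were higher by their sum. Rrm2, the regulated subunit of the enzyme that makes deoxynucleotides, had 71 UMIs in 19 dividing cells and 6 UMIs in 6 cells with 0 UMIs (log2 ratio 5.25, 4.06 to 6.74; 4.26 over deep cells). Tyms, which makes thymidylate, had 2.93 (2.06 to 3.88; 2.36), and Tk1, a thymidine kinase below the 50-UMI minimum, had 30 UMIs in dividing cells and 2 in cells with 0 UMIs. In the nucleotide list 4 of 10 measured genes passed 2-fold upwards and 0 downwards (median 0.74; 0.78 over deep cells), and the sum was 1252 and 633 CPM in dividing cells and cells with 0 UMIs. Pcna, the sliding clamp of DNA polymerases, stood at 234 CPM in dividing cells and 142 CPM in cells with 0 UMIs (0.72, 0.40 to 1.03; 0.45 over deep cells). Mcm6, a subunit of the replicative helicase, had 1.53 (0.81 to 2.23; 1.00), Tipin, which guards stalled forks, 1.92 (1.22 to 2.62; 1.29) and Orc6, of the origin recognition complex, 1.40 (0.61 to 2.17; 1.86). Among 11 measured of 38 replication genes, 4 passed 2-fold upwards and 0 downwards (median 0.91; 1.00 over deep cells), and the list summed to 1359 CPM in dividing cells and 586 CPM in cells with 0 UMIs (1.21, 1.08 to 1.35; 1.06 over deep cells). Genes that load histones on new DNA had a median of 0.61 (0.76), with Hat1, which acetylates new histones, at 1.45 (1.24) and Dek, a chromatin protein, at 1.38 (1.60), and 2 of 8 measured genes at least 2-fold higher. Of the replication-dependent histones, whose main transcripts have no poly(A) tail and are poorly caught by this chemistry, 2 were measured, Hist1h1c at 1.44 (1.38) and Hist1h2bc at 0.99 (0.84), with a median of 1.21.

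S phase and mitotic transcripts were seen together in some dividing cells and apart in others. Rrm2 and Cdc20 were both seen in 7 of the 67 dividing cells, Rrm2 without Cdc20 in 12, Cdc20 without Rrm2 in 14, and neither in 34. Rrm2 was seen together with Top2a in 14 cells and with Ccnb1 in 6. At least 3 UMIs of the replication list were held by 53 of 67 dividing cells (79.1%, 67.4 to 88.1%), 49 of 129 cells with 1 or 2 UMIs (38.0%, 29.6 to 46.9%) and 140 of 381 cells with 0 UMIs (36.7%, 31.9 to 41.8%), at median depths of 8055, 4909 and 3952 UMIs. The order of these shares moves with depth, and a gene missed in a cell may be present below the depth.

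Regulators of entry into the cycle did not move as a group. The list of G1 control and cell cycle inhibitors had a median log2 ratio of −0.11 (0.02 over deep cells), with 1 of 14 measured genes past 2-fold upwards and 2 downwards. The higher one was Cdkn2d, an inhibitor of Cdk4 and Cdk6, at 90.6 CPM in dividing cells and 21.4 CPM in cells with 0 UMIs (2.08, 1.44 to 2.73; 1.83 over deep cells). The lower ones were Btg2, an antiproliferative gene (−1.14; −0.28), and Myc, a growth-promoting transcription factor, whose 9 UMIs stood in 6 dividing cells (−1.19, −2.38 to −0.18; −0.98). Ccnd1, the cyclin of G1, stood at 96.1 CPM in dividing cells and 64.8 CPM in cells with 0 UMIs (0.57; 0.23), with 50.9% of its dividing-cell UMIs in 3 cells. Cdkn1a, which encodes the inhibitor p21, stood at 359 CPM in dividing cells, 609 CPM in all cells with 0 UMIs and 348 CPM in the deep ones (−0.76, −0.99 to −0.54; 0.04). Genes of the CSF1 receptor axis had a median of −0.21 (−0.05 over deep cells), with 0 of 10 past 2-fold in either direction, and included Csf3r at −0.87 (−0.59) and Grb2 at −0.76 (−0.69). Csf1r itself, the receptor that sustains microglia, was at 707 CPM in dividing cells, 1059 CPM in all cells with 0 UMIs and 696 CPM in the deep ones (−0.58; 0.02).

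Some genes of transport into the nucleus, splicing and protein turnover stood past 2-fold, and most did not. Ran, the GTPase that drives nuclear transport and spindle assembly, stood at 707 CPM in dividing cells and 267 CPM in cells with 0 UMIs (1.40, 1.21 to 1.60; 1.04 over deep cells), and its activator of hydrolysis Rangap1 had a log2 ratio of 1.64 (0.92 to 2.37; 1.93). In that list 3 of 7 measured genes passed 2-fold upwards and 0 downwards (median 1.00, and 0.66 over the 5 measured against deep cells). In the splicing list 3 of 23 were (median 0.46; 0.55), namely Lsm2 at 2.18 (1.63 to 2.74; 1.54) and Lsm5 at 1.85 (1.76), subunits of a ring that binds U6 RNA, and Snrpa1 at 1.05 (1.00). Proteasome subunits had a median of 0.55 (0.42), with Psmd2 at 1.28 (0.95) and Psmd13 at 1.15 (0.84) past 2-fold among 26. Chaperones had a median of 0.25 (0.10; 0 of 19 past 2-fold), with Ppia at 0.78 (0.67), Cct7 at 0.64 (0.68) and Hsp90b1 at 0.57 (0.27), and ribosome biogenesis genes −0.14 (0.01; 0 of 14), with Ddx21 at −0.81 (−0.66), Nip7 at 0.80 (0.56) and Nop10 at 0.48 (0.49).

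Few metabolic genes passed 2-fold. Glycolysis genes had a median of 0.61 over all and 0.08 over the deep cells with 0 UMIs, with 1 of 16 at least 2-fold higher, Pgam1 (1.00; 0.40), beside Gapdh at 0.95 (0.40) and Eno1 at 0.86 (0.42). Genes of oxidative phosphorylation had medians of 0.53 and 0.28, with 0 of 25 past 2-fold, including Sdhc at 0.87 (0.49), Ndufa4 at 0.84 (0.60) and Cox5a at 0.78 (0.55). Cholesterol synthesis genes had medians of 0.07 over 6 measured genes and −0.53 over the 1 measured against deep cells, with Insig1 at −0.94 (0.08), Fdps at 0.74 (0.96) and Msmo1 at −0.59 (−0.53). Actin cytoskeleton genes had 0.29 and 0.16, with Tpm4, a tropomyosin, at 1.04 (0.49), Tmsb4x at 0.65 (0.30) and Actb at 0.54 (0.59), and 3 dividing cells held 39.2% of the Actb UMIs.

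**Figure D4:**
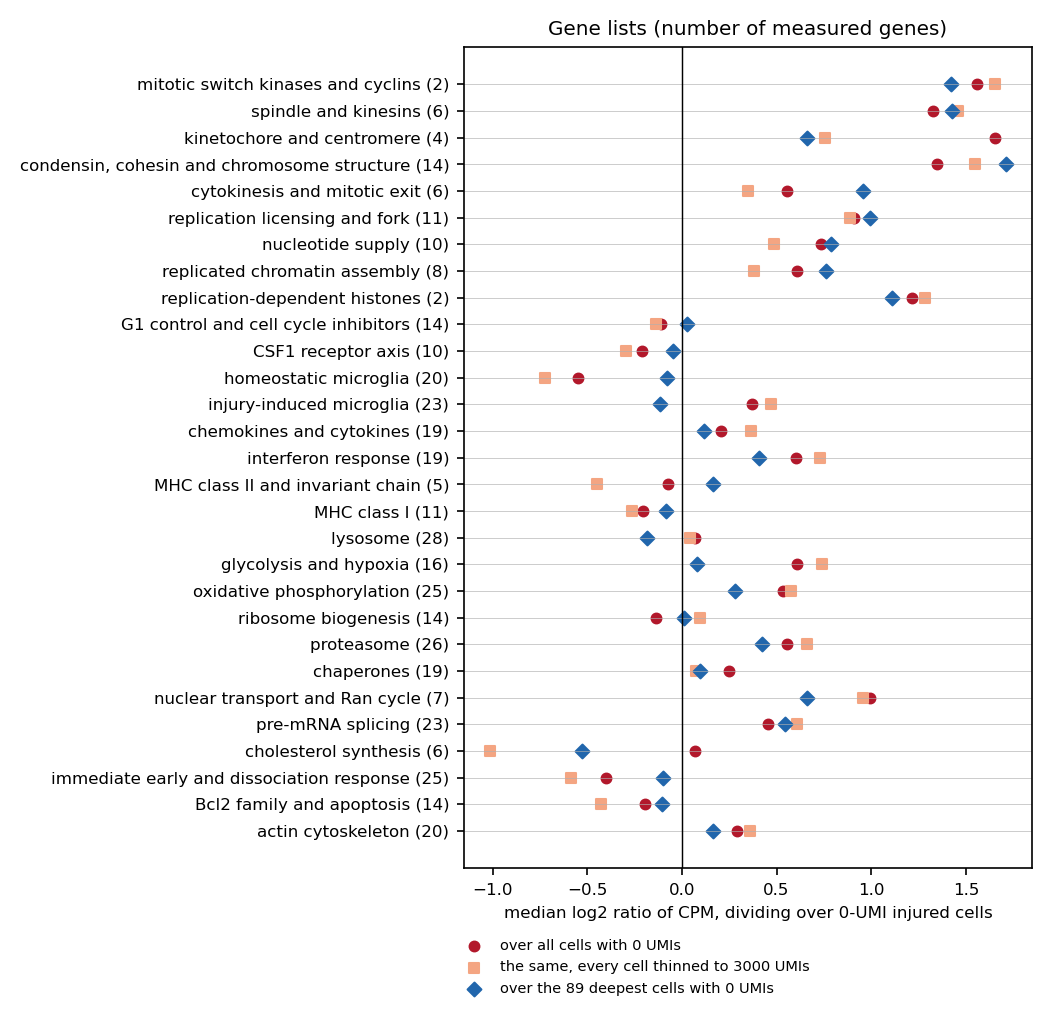
Median log2 ratio of CPM (horizontal axis) over the measured genes of 29 lists, whose numbers over all cells stand in brackets, for dividing cells over all cells with 0 UMIs (red circles), the same with every cell thinned to 3000 UMIs (light squares) and over the 89 deep cells with 0 UMIs (blue diamonds). The list with 1 measured gene over all cells is left out. Thinned medians rest on 1 gene for the kinetochore, replication-dependent histone and cholesterol lists. They rest on 2 genes for the lists of mitotic kinases and of replication. The 9 lists of mitosis, replication and histones at the top stay above 0.3 under all 3, while the homeostatic list stands at −0.55, −0.72 and −0.08 and the injury-induced list at 0.37, 0.47 and −0.11.

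Genes of resting microglia were lower over all cells with 0 UMIs but near those of deep cells. P2ry12, a receptor for ADP and a marker of resting microglia, ran from 0 to 18.8 UMIs per 10000 with a median of 3.18 in dividing cells. It ran from 0 to 26.9 with a median of 3.14 in the deep cells with 0 UMIs, and from 0 to 68.5 with a median of 8.83 in all of them. The ranges of dividing and deep cells overlapped, and their medians lay side by side. Pooled, P2ry12 stood at 379 CPM in dividing cells, 452 CPM in deep cells and 1051 CPM in all cells with 0 UMIs (−1.47, −1.69 to −1.27; −1.75 thinned; −0.25 over deep cells, −0.51 to −0.00), and at 3294 CPM in the uninjured library. Cst3, the protease inhibitor cystatin C, stood at 7298 CPM in dividing cells, 9743 CPM in deep cells and 21871 CPM in all cells with 0 UMIs (−1.58, −1.63 to −1.54; −1.57 thinned; −0.42 over deep cells). All 20 homeostatic genes were measured, and 8 of them passed 2-fold downwards and 0 upwards over all cells with 0 UMIs, with Crybb1, a crystallin, at −2.58 (−1.09), Adgrg1, an adhesion receptor, at −2.01 (−0.65) and Slc2a5, a fructose transporter, at −1.91 (−0.72). Of the 16 measured over deep cells 0 were past 2-fold in either direction. The medians were −0.55 over all and −0.08 over deep cells, and −0.72 thinned, and the summed level was 24320 CPM in dividing cells, 26327 CPM in deep cells and 40666 CPM in all cells with 0 UMIs. Tmem119, a membrane protein of microglia, had −0.38 (0.06) and the fractalkine receptor gene Cx3cr1 −0.35 (−0.39).

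Genes that microglia switch on after injury had a list median above 0 over all cells with 0 UMIs and below 0 over the deep ones, and few passed 2-fold. Spp1, the secreted protein osteopontin, ran from 0 to 650 UMIs per 10000 with a median of 62.0 in dividing cells, from 1.64 to 2788 with a median of 73.9 in deep cells with 0 UMIs, and from 0 to 2788 with a median of 9.21 in all of them. A typical dividing cell thus held more Spp1 than a typical cell with 0 UMIs and less than a typical deep one, and the highest Spp1 value stood in a cell with 0 UMIs. Pooled, the levels were 13591 CPM in dividing cells, 21364 CPM in deep cells and 10798 CPM in all cells with 0 UMIs, so the log2 ratio was 0.33 (0.29 to 0.37) and −0.65 (−0.69 to −0.61). Apoe, the main lipid carrier of the brain and cord, ran from 4.69 to 875 per 10000 with a median of 158 in dividing cells and from 6.21 to 1924 with a median of 342 in deep cells with 0 UMIs. It ran from 1.81 to 2244 with a median of 114 in all of them, and its pooled ratio was −0.48 (−0.96 over deep cells, −0.99 to −0.93). Lpl, a lipase, had 0.76 (−0.11), Igf1, a growth factor, 0.38 (−0.57), Cst7, a protease inhibitor, 0.04 (−0.58) and Gpnmb, a glycoprotein of lipid-laden phagocytes, 0.14 (−0.75), with 62.5% of the Gpnmb UMIs of dividing cells in 3 cells. Lgals1, a galectin, had 1.18 (0.96 to 1.40), Anxa2, an annexin, 1.16 and Ch25h, which oxidises cholesterol, 0.99. Over deep cells these 3 genes had 0.47, 0.36 and 0.26. In cells with Xist UMIs alone they had 0.53, 0.32 and 1.49, and with Y-linked UMIs alone 2.29, 2.11 and 0.36. The difference between the sexes was not tested. In the list 2 of 23 measured genes passed 2-fold upwards and 0 downwards (median 0.37), and over deep cells the median was −0.11 with 0 past 2-fold. All 6 injured barcodes with fewer than 3 UMIs of a wider list of microglial markers, at a median of 2286 UMIs, also held Spp1 UMIs. Whether free RNA accounts for this was not tested, and the share of cells with a Spp1 UMI was not read.

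Among secreted and immune genes, few stood apart from deep cells. Lyz2, lysozyme, was lower under both references, at 1450 CPM in dividing cells, 4247 CPM in deep cells and 3596 CPM in all cells with 0 UMIs (−1.31, −1.42 to −1.20; −1.55). Its median per cell differed less, at 10.4 UMIs per 10000 in dividing cells, 15.7 in deep cells and 15 in all cells with 0 UMIs, with highest values of 97.2, 520 and 1107. Ctsf, a lysosomal protease, had 13 UMIs in dividing cells and 221 in cells with 0 UMIs (−2.40, −3.33 to −1.60; −1.89), and Ptafr, the receptor of platelet-activating factor, 12 and 205 (−2.41; −1.41). The chemokine Ccl5 had −2.24 (−2.66 to −1.85; −2.90), with 72.7% of its dividing-cell UMIs in 3 cells. Ccl7, another chemokine, had 1.67 (1.42), with 64.9% in 3 cells, Cxcl14 1.17 (0.10) and Ccl4 0.27 (0.54). The list of chemokines and cytokines had a median of 0.21 (0.12), with 2 of 19 past 2-fold upwards and 1 downwards. Interferon-response genes had a median of 0.60 (0.41), with Isg20 at 1.35 (0.95), Ifit2 at 1.24 (1.09) and Rsad2 at 1.04 (0.37) past 2-fold among 19 (0 lower) and 1 of 17 over deep cells, and 3 cells held 69.6%, 60.3% and 64.4% of their UMIs in dividing cells. At a threshold of 5 UMIs 0 of 18 interferon genes passed 2-fold, and in cells with Y-linked UMIs alone the median was −1.21 with 5 of 8 lower, against 0.73 with 5 of 17 higher in cells with Xist UMIs alone, a difference that was not tested. Lysosomal genes had a median of 0.07 (−0.18), with 1 of 28 lower, Ctsf, beside Ctss at −0.87 (−0.38). The lists of MHC class I and class II had medians of −0.21 (−0.09) and −0.07 (0.17) with 0 of 11 and 0 of 5 past 2-fold, including H2-D1 at −0.85 (−0.57), Tap1 at 0.55 (0.48) and Psmb8 at 0.52 (0.48), and Cd74, the invariant chain, at −0.56 (0.44), H2-DMa at 0.26 (0.22) and Cd86 at −0.19 (0.11).

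The remaining low genes were closer to the deep cells than to all cells with 0 UMIs, while thinning left them low. Lag3, an immune receptor that microglia express, had 94.2 CPM in dividing cells, 192 CPM in deep cells and 476 CPM in all cells with 0 UMIs (−2.34, −2.77 to −1.93; −1.03 over deep cells; −2.41 thinned). Hspa1a, an inducible heat-shock protein, had −1.75 (−2.02 to −1.48; −0.80), Sepp1, a selenium carrier, −1.38 (−0.65), Trf, transferrin, −1.30 (−0.81) and Tnpo3, a nuclear import receptor, −1.63 (−0.65). Genes of the immediate early and dissociation response, which enzymatic digestion can raise, had a median of −0.40 (−0.10 over deep cells; −0.59 thinned). Over all cells with 0 UMIs 4 of 25 were at least 2-fold lower, among them Hspa1b at −2.14 (−1.33) and Fosb at −1.15 (−0.48). Over deep cells 0 of 23 measured genes were, with Hspa1b under the minimum there. Genes of the Bcl2 family and apoptosis had a median of −0.19 (−0.10), with 1 of 14 past 2-fold each way: Bak1, a pore former, at 1.20 (0.81), Pmaip1, which encodes Noxa, at −1.05 (−0.41). Xiap, an inhibitor of caspases, had −0.84 (−0.38). The 1 measured gene of DNA repair was Parp1, at 2.22 (3.07), and 3 cells held 86.8% of its UMIs in dividing cells. The other genes in the top ranks included Lockd, a noncoding RNA (4.59, 3.36 to 6.11; 4.92), Rdm1 (2.65, 1.86 to 3.48; 2.98) and Ccdc34 (2.39, 1.72 to 3.07; 2.96).

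Dividing cells differed among themselves along the count that chose them. They were described in 3 ranges of it: 25 cells with 3 to 5 UMIs of the 18 genes, 26 with 6 to 19 and 16 with 20 or more, at median depths of 8570, 8324.5 and 7534 UMIs. Summed spindle and chromosome structure genes outside the 18 followed it, and summed replication genes rose less. The spindle list stood at 2625, 3836 and 7493 CPM over the 3 ranges in that order. The chromosome structure list stood at 3949, 5987 and 10012 CPM, and the replication list at 1301, 1312 and 1544 CPM. H2afz stood at 1859, 2501 and 3933 CPM, Stmn1 at 623, 835 and 1479 CPM, and Cdca8 at 9.23, 70.8 and 293 CPM over the 3 ranges in that order. Rrm2 stood at 41.5, 137 and 268 CPM, while Pcna stood at 226, 283 and 163 CPM without an order beyond its intervals. The summed homeostatic list changed little, at 23434, 25205 and 24356 CPM, and P2ry12 stood at 374, 326 and 479 CPM. Single genes were not all flat. Cst3 stood at 6541, 7860 and 7664 CPM, with its first interval (6205 to 6891) below the others, and Tmem119 at 489, 689 and 699 CPM. The summed injury-induced list fell along the count, with 92899, 60077 and 55205 CPM. Apoe stood at 31926, 18174 and 14108 CPM and Gpnmb at 309, 56.6 and 8.13 CPM, the last resting on 67, 12 and 1 UMIs. Spp1 did not fall throughout: it stood at 19974, 7912 and 12125 CPM, lowest in the middle range. These are sums over few cells of 1 library, and the ranges were set with the values known.

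**Figure D5:**
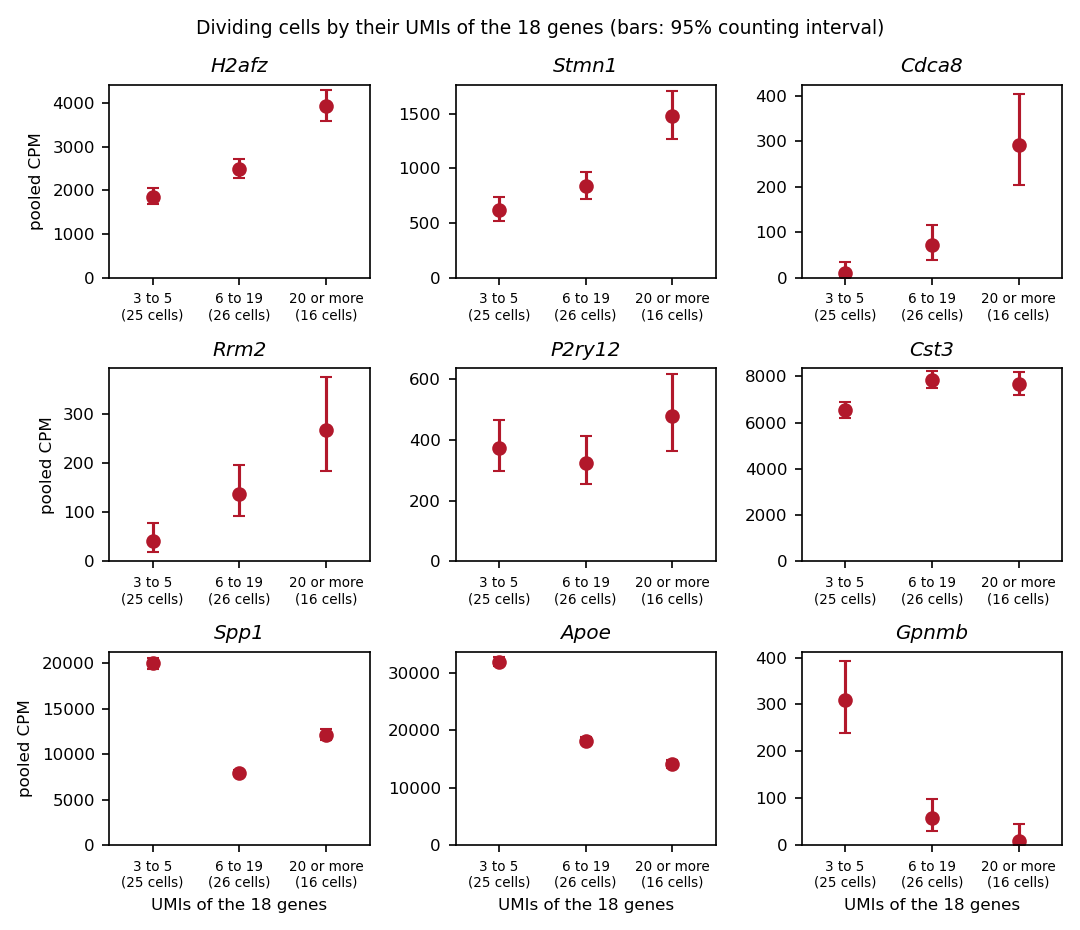
Pooled CPM (vertical axis, from 0) of 9 genes in dividing cells grouped by their UMIs of the 18 mitotic genes (horizontal axis), with exact Poisson 95% intervals as bars. H2afz, Stmn1, Cdca8 and Rrm2 are highest in the 16 cells with 20 or more UMIs, where Apoe is at 14108 CPM and Gpnmb at 8.13 CPM, their lowest of the 3 ranges.

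In GRCm38, Stmn1 (ENSMUSG00000028832) lies on chromosome 4 at 134468320 to 134473843, H2afz (ENSMUSG00000037894) on chromosome 3 at 137864487 to 137866922, and Cdca8 (ENSMUSG00000028873) on chromosome 4 at 124918465 to 124939311. Rrm2 (ENSMUSG00000020649) lies on chromosome 12 at 24708241 to 24714146 and Lyz2 (ENSMUSG00000069516) on chromosome 10 at 117277331 to 117282321. The annotation calls each of the 5 genes protein-coding. Counts are of whole genes, so they name no exon.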

How the data were processed

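For each of 2 libraries the authors deposited raw UMI counts (27998 genes by barcodes). The submitters' processing notes name Cell Ranger 2.0.1, STAR and Seurat 2.1.0 as tools and GRCm38.p5 (mm10) as the build, without their settings. Of 580 injured and 705 uninjured barcodes, those with at least 200 genes and at most 10% mitochondrial UMIs were kept, which removed 3 and 10. The labels' protocols state that scatter gates of the sort excluded doublets, and no doublet caller was run.

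UMI counts were summed per class and scaled to CPM in Python 3.11.15 with numpy 2.4.6, scipy 1.17.1 and pandas 2.3.3. A class at 0 UMIs was set to 3 counts (5.44 CPM in dividing cells, 1.69 CPM in cells with 0 UMIs), which gives a bound. Ratio intervals are Clopper-Pearson intervals of the share of UMIs. edgeR 4.0.16 and DESeq2 1.42.0 gave size factors only. The 56 symbols under 2 identifiers were left out, and some genes are not reported here. The calculation was tested on simulated data. Coordinates are those of GENCODE vM21 by gene identifier, and promoters those of RefSeq.

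Named genes were first the 15 highest and 10 lowest ratios by the interval bound nearest 0. Each had a UMI in at least 25% of the cells of its class. Mitochondrial, ribosomal, haemoglobin, Rik and numbered Gm genes, Xist and Y-linked genes were left out of these, and other X-linked genes were not. To them were added up to 3 genes from each of 30 lists with the largest ratio, 24 fixed genes and the 18 genes of the rule. Members, lists and ranges were chosen with earlier results of these data known. Alternatives were other thresholds, depths, scalings, minima and the cells of each sex.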

Additional observations from a re-analysis of the deposited data

Results flagged for a closer look

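Igf1, a growth factor that microglia make after injury, differed in direction between cells of the 2 sexes. In cells with Xist UMIs alone its log2 ratio, dividing over 0 UMIs, was −0.48 (95% counting interval −0.97 to −0.00). It rested on 48 UMIs summed over the class of 30 dividing cells and 163 UMIs over the class of 129 cells with 0 UMIs, whether or not a cell held Igf1. In cells with Y-linked UMIs alone the log2 ratio was 1.56 (1.04 to 2.07), from 56 UMIs over the class of 15 dividing cells and 78 UMIs over the class of 99 cells with 0 UMIs. The difference was not tested, since the number of animals of either sex is unknown and cells are not replicates. Over all dividing cells, 3 cells held 32.6% of the Igf1 UMIs.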

How the results depend on the processing

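Values are log2 ratios of dividing cells over cells with 0 UMIs unless said. The share of dividing cells was 16.5% at a threshold of 2 UMIs, 8.49% at 5 and 8.17% after thinning. Genes at least 2-fold higher and lower numbered 163 and 219 of 4380 measured genes, and 86 and 19 of 2863 over deep cells. They numbered 87 and 62 of 2280 in cells with Xist UMIs alone and 78 and 117 of 1609 with Y-linked UMIs alone. At a minimum of 20 UMIs they numbered 416 and 537 of 6913, and at 200 they numbered 29 and 40 of 1537. The number of measured genes differs, so the counts are not comparable as they stand. The median of the chromosome structure list was 1.35, and became 1.55 after thinning, 1.71 over deep cells, 1.24 with TMM factors, 1.25 with DESeq2 size factors, 1.57 at a threshold of 5, 1.46 without cells of both sexes' UMIs and 1.45 in cells with Y-linked UMIs alone. The homeostatic median was −0.55, and became −0.72 after thinning, −0.59 with a mean over cells, −0.080 over deep cells, −0.66 with TMM, −0.65 with DESeq2, −0.64 at a threshold of 5, −0.47 without both sexes' UMIs, −0.46 with Xist UMIs alone, −0.33 with Y-linked UMIs alone and −0.37 at a minimum of 200. The injury-induced median was 0.37, and became 0.47, 0.64, −0.11, 0.26, 0.27, 0.22, 0.33, 0.32, 0.49 and 0.36 under the same alternatives in that order. These lists' medians move with which genes are measured and with the cells compared, and the causes were not tested. Parp1, the measured gene of the DNA repair list, turned to −0.49 at a threshold of 5 UMIs and to −0.048 in cells with Y-linked UMIs alone, where Isg20, Ifit2 and Rsad2 turned to −0.96, −1.48 and −1.28. Of 63 named genes past 2-fold, 59 stayed so after thinning, 58 with TMM, 59 with DESeq2 and 38 over deep cells, with no minimum of UMIs applied again. All 63 kept their direction under each of these. TMM and DESeq2 factors move every log2 ratio by a constant, −0.11 and −0.10, so no direction could turn there. Thinning and the deep cells reuse the cells that chose these genes. The counts therefore describe these genes and support nothing more. No paired analysis was possible because there was 1 library per condition, and no replicate could be left out. Depth limits rare transcripts: most genes of the spindle, kinetochore and repair lists had fewer than 50 UMIs.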

Other observations

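Of the 19 genes at least 2-fold lower over deep cells with 0 UMIs, 3 more were picked out after their values were seen. Apoc1, an apolipoprotein, stood at 47.1 CPM in dividing cells and 141 CPM in deep cells (log2 ratio −1.58), and Mertk, a receptor for dying cells, at 29.0 and 61.8 CPM (−1.09), and at 98.9 CPM in the uninjured library. Ms4a7, one of the border-associated macrophage markers, stood at 43.5 CPM in dividing cells and 112 CPM in deep cells (−1.36), with 83.3% of its dividing-cell UMIs in 3 cells.

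Some high ratios rested on a handful of cells. Loxl2, a lysyl oxidase that crosslinks collagen, had 58 UMIs in dividing cells and 2 in deep cells (5.29), with 93.1% in 3 cells. Saa3, an acute-phase protein, had 58 and 23 UMIs (1.77), with 84.5% in 3 cells, and Iigp1, an interferon-inducible GTPase, 46 and 5 (3.63), with 84.8%. By contrast 2810417H13Rik, left out by the naming rule, had 139 UMIs in 41 dividing cells and 6 in deep cells (4.97), with 20.9% in 3 cells.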
